A study of Mus musculus with 2 samples.

Results

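Nuclear receptors are transcription factors that bind DNA through a pair of zinc fingers and, in most members, read a small fat-soluble ligand such as a steroid or a retinoid. The genes described here are 42 protein-coding genes among the 43346 genes deposited. They match the systematic symbols of the family from Nr0 to Nr6 with subgroup letters a to f (20 genes) or are on a list. The list holds 25 receptor genes, 22 of which have other names that the pattern does not take. The 42 genes are 41 receptors and Nr2c2ap, which the pattern takes and which encodes a protein that binds a receptor and is not one itself. Of the 49 receptor genes of the mouse family, 8 lie outside this rule, among them Nr1h2, Nr1h3, Nr1h4, Nr1h5, Nr1i2 and Nr1i3.

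PolyA mRNA was measured in the testis of a single male C57BL/6J mouse, an inbred strain, at 10 weeks of age. The animal gave 1 biological replicate and 2 technical libraries, here called replicate 1 and replicate 2, and replicate 2 was made later. There is 1 group, with no treatment, transgene or second condition, so every value describes this testis. An SD over the libraries (n = 2) covers technical spread only, and intervals and floors from counts cover counting error only. Expected counts, the estimated reads per gene, summed to 31995377 in replicate 1 and 20675551 in replicate 2. Levels are in TPM, which corrects for transcript length and library depth, and are given in the order replicate 1 and replicate 2.

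In the testis, retinoic acid receptors are known for their part in the entry of germ cells into differentiation. Steroid receptors answer hormones made by Leydig cells and the adrenal gland. Several orphan receptors, which have no accepted ligand, are named for the testis or for germ cells. Many receptors of the retinoid, thyroid hormone and vitamin D groups bind DNA as a heterodimer with a retinoid X receptor. Steroid receptors pair with themselves and are held by heat shock protein chaperones until the hormone arrives.

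The part of a receptor that reads DNA is encoded in a short stretch of its first zinc finger. A search of the coding sequences of GENCODE release M21 for the spacing of the finger's 4 cysteines found it in 39 of the 42 members, and not in Nr0b1, Nr0b2 or Nr2c2ap. The 5 codons after the third cysteine encode the P-box, the contact surface that sets which hexamer a receptor prefers. Coding stretches of 69 bases are shown for 11 members from 5 of the 9 groups that share a P-box, so that shared and differing letters can be compared, 5′ to 3′, with the 15 P-box bases in capitals.
Nr6a1: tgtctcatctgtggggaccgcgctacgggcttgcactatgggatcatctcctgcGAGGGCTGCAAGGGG
Nr2c2: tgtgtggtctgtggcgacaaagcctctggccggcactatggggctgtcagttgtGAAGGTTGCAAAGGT
Nr2c1: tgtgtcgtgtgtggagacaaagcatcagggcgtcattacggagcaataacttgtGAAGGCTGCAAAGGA
Rora: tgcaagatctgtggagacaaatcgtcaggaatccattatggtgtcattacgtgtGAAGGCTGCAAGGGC
Rara: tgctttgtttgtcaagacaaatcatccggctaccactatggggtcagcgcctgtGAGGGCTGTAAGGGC
Vdr: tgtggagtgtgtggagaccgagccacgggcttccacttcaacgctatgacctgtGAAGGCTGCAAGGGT
Nr4a1: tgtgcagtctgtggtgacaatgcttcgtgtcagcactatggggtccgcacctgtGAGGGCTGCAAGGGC
Nr5a1: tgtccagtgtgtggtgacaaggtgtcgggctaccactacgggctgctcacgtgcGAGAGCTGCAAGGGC
Nr2f2: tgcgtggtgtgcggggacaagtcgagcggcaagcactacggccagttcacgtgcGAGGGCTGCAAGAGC
Esrra: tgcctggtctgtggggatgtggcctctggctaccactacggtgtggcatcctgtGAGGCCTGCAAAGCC
Esr1: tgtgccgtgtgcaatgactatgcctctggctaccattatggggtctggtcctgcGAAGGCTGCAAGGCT

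These 11 stretches come from the most abundant coding transcript of each gene. The stretch of Nr6a1 lies in exon 2 at chr2:38760326-38760394 (GRCm38, minus strand), and that of Esr1 in exon 4 at chr10:4746717-4746785 (plus strand). That of Esrra is at chr19:6920085-6920153 (minus strand) and that of Nr2f2 at chr7:70360027-70360095 (minus strand). In Nr2c2, Nr2c1, Rora, Rara and Nr5a1 the stretch is spliced from 2 exons. Translated, the 39 P-boxes fell into 9 groups. The largest held 22 genes, which spell the same residues with 15 different codings, and took in Nr6a1, the testicular orphan receptors, the ROR, REV-ERB, retinoid, thyroid hormone, vitamin D, PPAR and NR4A receptors. These 22 genes held 82.1% of the summed TPM of all 42 members in replicate 1 and 78.7% in replicate 2. The group of Nr3c1, Nr3c2 and Pgr held 7.16% and 2.19%, and that of Esr1 and Esr2 held 1.71% and 0.686%. The grouping used no measured value, and 9 of the 22 genes were detected, by the limit defined next. Between related genes the 69 bases were identical at 65 positions for Nr2f2 and Nr2f1, at 53 for Nr2c2 and Nr2c1, and at 49 for Nr2e3 and Nr2e1.

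Nr6a1 was the highest member in both libraries and Nr2c2 ranked second in both, so 2 orphan receptors stood above every hormone receptor. Members were called detected where neither library gave less than 1 TPM, which held for 15 of the 42, beside 54.6% of protein-coding genes. Another 13 members passed it in replicate 2 only, 1 (Thrb) in replicate 1 only, and 13 in neither. Only 6 members reached 8 TPM in both libraries, namely Nr6a1, Nr2c2, Rora, Nr1d2, Nr2c1 and Nr0b1. The median member stood at percentile 41.9 of protein-coding genes by mean TPM, 19 members stood above the median gene, and none above percentile 90. The median mean level was 1.89 TPM for members and 3.92 TPM for protein-coding genes. Summed over all members the level was 214.9 TPM in replicate 1 and 380.3 TPM in replicate 2, of which Nr6a1 held 29.4% and 26.9%. In whole tissue, fewer cells of a type and less RNA per cell cannot be told apart.

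**Figure D1:**
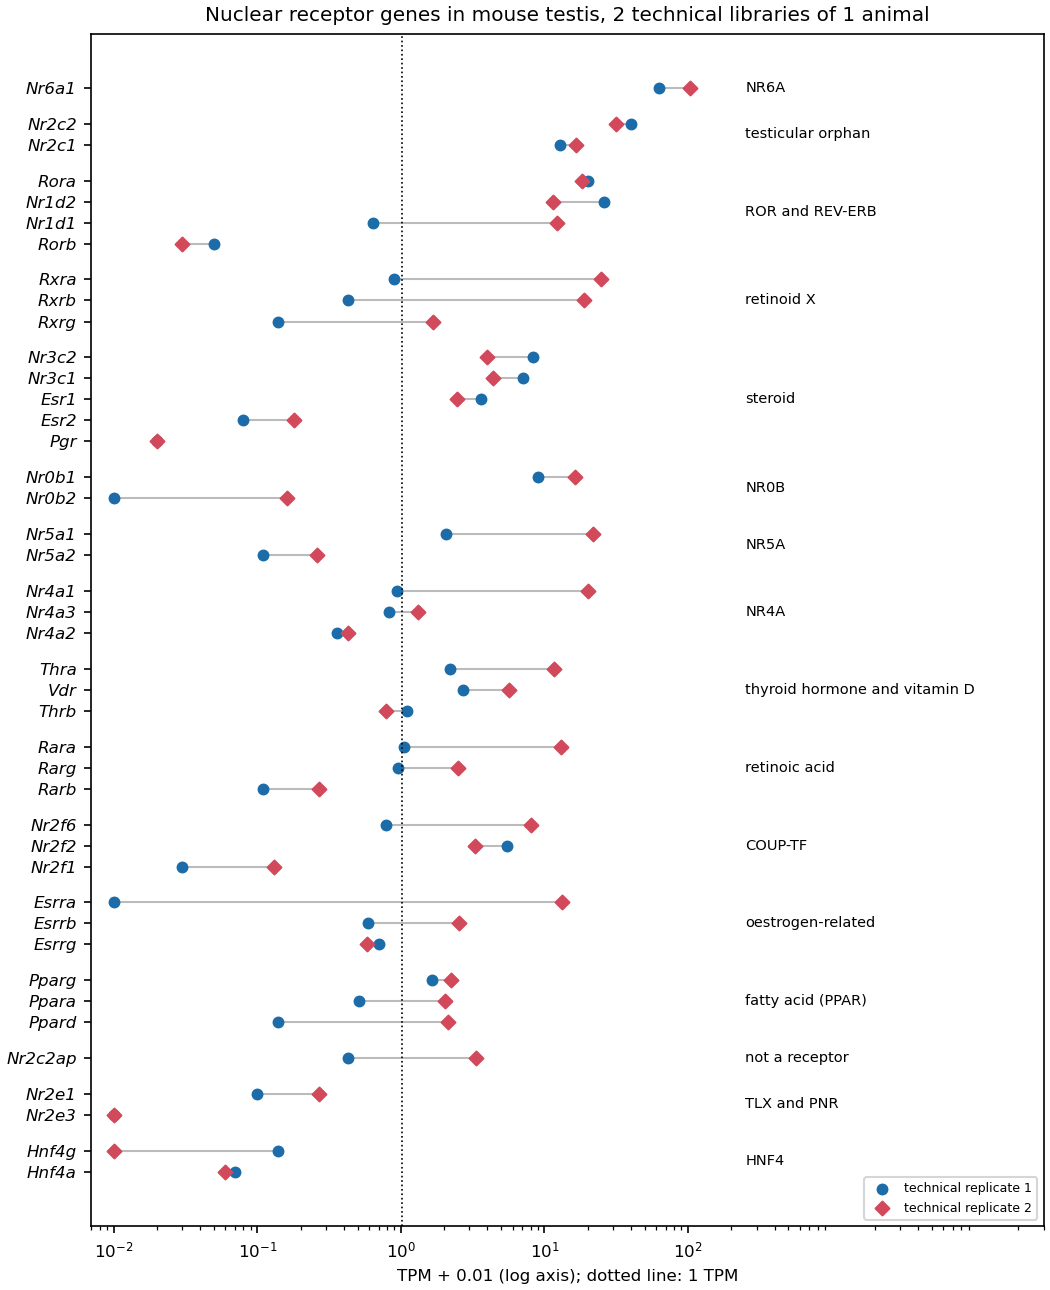
Level of each of the 42 members in both libraries, as TPM + 0.01 on a log axis, grouped by receptor class, with circles for replicate 1, diamonds for replicate 2 and a dotted line at 1 TPM. Nr6a1 sits at 63.2 and 102 TPM at the top, while Esrra is listed at 0 in replicate 1 and at 13.3 TPM in replicate 2.

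Among the 20 receptors of highest mean TPM, neighbours kept their order in both libraries only at the top. Neighbours were set by the mean of these same 2 libraries, so the steps do not measure the stability of the whole order. For neighbours among the 20 receptors of highest mean TPM, the ratio of their TPM was taken within each library with its 95% interval (exact, Clopper-Pearson, from counts scaled for length). Of these 19 steps, 2 had an interval on the same side of 1 in both libraries: Nr6a1 over Nr2c2 (1.58-fold and 3.27-fold) and Nr2c2 over Rora (2.01-fold and 1.73-fold). In 11 steps the libraries gave opposite orders, among them Rora and Nr1d2, where Nr1d2 was higher in replicate 1 and Rora in replicate 2.

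Nr6a1 encodes the germ cell nuclear factor, an orphan receptor that represses transcription. The gene (ENSMUSG00000063972.9, chromosome 2, 38723370 to 38927688, minus strand) was at 63.2 TPM in replicate 1 and 102 TPM in replicate 2 (82.8 ± 27.7, SD, n = 2), at percentile 89.9 of protein-coding genes. Both libraries placed it above every other member. Its share of all counts was nearly the same in both, at 239 and 230 CPM (counts scaled to the library total), so the scales differ in which library is higher. The transcript shares differed: Nr6a1-210 held 83.1% of the gene's TPM in replicate 1 and 0% in replicate 2, where Nr6a1-201 held 33.7%, Nr6a1-206 28.8% and Nr6a1-202 19.6%. Nr6a1-206 is a noncoding transcript of 675 bases that took 4.20% of the gene's counts in replicate 2. Transcripts annotated as coding held 97.6% of the TPM in replicate 1 and 57.3% in replicate 2.

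Nr2c2 and Nr2c1 encode the testicular receptors TR4 and TR2, close relatives that bind repeats of the same hexamer. Nr2c2 (ENSMUSG00000005893.10, chromosome 6, 92091390 to 92174294, plus strand) was at 40.1 and 31.3 TPM (35.7 ± 6.22). Nr2c1 (ENSMUSG00000005897.10, chromosome 10, 94148023 to 94197211, plus strand) was at 12.8 and 16.7 TPM (14.8 ± 2.73). Nr2c2 exceeded Nr2c1 in both libraries, 3.13-fold in replicate 1 (95% interval 2.92 to 3.35) and 1.88-fold in replicate 2 (1.72 to 2.05). Nr2c2-201, of 7647 bases, was the main transcript of Nr2c2, with 94.2% and 81.0% of its TPM. Nr2c1 was given almost wholly to Nr2c1-203 in replicate 1 (99.6%) and to Nr2c1-201 (61.3%) and Nr2c1-203 (38.7%) in replicate 2. Nr2c2ap, whose product binds TR4 and is no receptor, was low, at 0.42 and 3.30 TPM.

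The ROR receptors activate and the REV-ERB receptors repress at shared DNA elements and are known as part of the circadian clock. Rora (ENSMUSG00000032238.13, chromosome 9, 68653786 to 69388246, plus strand) was at 19.99 and 18.1 TPM (19.1 ± 1.34), the smallest spread among the 6 members above 8 TPM. Its short form Rora-202 held 76.0% and 87.3% of that level, and the 10878-base Rora-201 held 23.1% and 12.1%. Nr1d2, which encodes REV-ERB beta (ENSMUSG00000021775.10, chromosome 14, 18204054 to 18239127, minus strand), was at 25.8 and 11.4 TPM. Nr1d1, which encodes REV-ERB alpha, was at 0.63 and 12.1 TPM. The REV-ERB genes therefore stood 41.1-fold apart in favour of Nr1d2 in replicate 1 (interval 28.3 to 61.9) and at a ratio of 0.938 in replicate 2, with an interval that spans 1 (0.828 to 1.06). On plain counts the ratio was 85.6 and 1.53, with Nr1d2 higher in both libraries. Nr1d1 and Thra overlap on opposite strands of chromosome 11 (Nr1d1 98767932 to 98775333, Thra 98740638 to 98769006), and whether the quantification used strand is not given in the sources used here, so reads from the shared bases cannot be assigned with certainty. Rorb was close to absent, at 0.04 and 0.02 TPM from 4 and 2 counts.

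Among receptors for steroid hormones inside the rule, the glucocorticoid, mineralocorticoid and oestrogen alpha receptors were detected, at low levels. Nr3c1, the glucocorticoid receptor, was at 7.12 and 4.34 TPM from 935 and 299 counts. Nr3c2, the mineralocorticoid receptor, was at 8.25 and 3.97 TPM from 239 and 129 counts. Much of the Nr3c2 level came from Nr3c2-205, a noncoding transcript of 350 bases with 78.0% of its TPM in replicate 1 and 58.6% in replicate 2 but 9.62% and 4.26% of its counts. Nr3c2-203, the coding transcript, was at 1.81 and 1.64 TPM. On length-scaled values Nr3c1 over Nr3c2 was 0.862 and 1.09, with the interval in replicate 2 spanning 1; on plain counts it was 3.91 and 2.32, above 1 in both. Esr1, oestrogen receptor alpha (ENSMUSG00000019768.12, chromosome 10, 4611593 to 5005614, plus strand), was at 3.61 and 2.44 TPM. Esr2, oestrogen receptor beta, was at 0.07 and 0.17 TPM, so Esr1 exceeded it 55.1-fold (21.4 to 203) and 14.2-fold (6.71 to 35.7). Pgr, the progesterone receptor, was at 0.01 TPM in each library, from 1 count each.

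Nr5a1 and Nr0b1 act on the same genes with opposite sign: Nr5a1 encodes steroidogenic factor 1, an activator of steroid synthesis genes, and Nr0b1 encodes DAX1, which lacks the zinc fingers and represses it. Nr5a1 (ENSMUSG00000026751.10, chromosome 2, 38692656 to 38714542, minus strand) was at 2.05 and 21.8 TPM. Nr0b1 (ENSMUSG00000025056.4, chromosome X, 86191764 to 86195947, plus strand) was at 8.96 and 16.3 TPM. The order of the pair turned between libraries, with Nr0b1 4.37-fold higher in replicate 1 (3.53 to 5.44) and Nr0b1 over Nr5a1 at 0.749 in replicate 2 (0.660 to 0.848). Their relatives were low: Nr5a2, which encodes LRH-1, was at 0.10 and 0.25 TPM, and Nr0b2, which encodes SHP, had 0 and 2 counts.

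The retinoid X receptors, the shared heterodimer partners, differed more between libraries than any other class of 3 genes, with a summed level of 1.44 TPM in replicate 1 and 45.2 TPM in replicate 2. Rxra was at 0.89 and 24.7 TPM, Rxrb at 0.42 and 18.9 TPM, and Rxrg at 0.13 and 1.66 TPM. None of the 3 reached 1 TPM in replicate 1, and all did in replicate 2. The log2 ratio of counts, replicate 2 over replicate 1, was 3.81 for Rxra, 5.01 for Rxrb and 3.23 for Rxrg. Set against genes of like GC content, it was 0.19, 1.12 and 2.07. Within each library Rxra stood highest: it exceeded Rxrb 2.13-fold and 1.30-fold, and Rxrg 6.97-fold and 14.8-fold. With the authors' posterior mean TPM, Rxrb over Rxra was 0.923 in replicate 1, where the excess of Rxra was lost, and 0.788 in replicate 2, where it held.

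Of the retinoic acid receptors, Rara was the highest. Rara was at 1.04 and 13.1 TPM, Rarg, known from undifferentiated spermatogonia, at 0.94 and 2.50 TPM, and Rarb at 0.10 and 0.26 TPM from 6 and 10 counts. Rara exceeded Rarb in both libraries, 10.7-fold (4.58 to 30.5) and 51.1-fold (27.5 to 107). Rara exceeded Rarg in replicate 2 only (5.22-fold, 4.14 to 6.65), with a ratio of 1.10 in replicate 1 (0.651 to 1.93). On plain counts the ratio was 2.38 and 4.97, above 1 in both libraries. Of 14 genes that make, bind or degrade retinoic acid, 8 were detected, beside 54.6% of protein-coding genes. The highest were Aldh1a1 (347 and 231 TPM) and Aldh1a2 (58.8 and 80.7 TPM), which make retinoic acid, Rdh11 (152 and 182 TPM), a retinal reductase, and Cyp26b1 (5.34 and 11.7 TPM), which degrades it.

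The promoters of Rarb and of Cyp26a1, another enzyme that degrades retinoic acid, are shown because they were the only ones of a member and of a retinoid gene, respectively, to hold a DR5 element, the spaced repeat that retinoic acid receptors bind. The 250 bases before the annotated start are given 5′ to 3′ on the gene's strand (RefSeq, GRCm38.p6), with the match in capitals.
Rarb, chr14:16575477-16575726, minus strand: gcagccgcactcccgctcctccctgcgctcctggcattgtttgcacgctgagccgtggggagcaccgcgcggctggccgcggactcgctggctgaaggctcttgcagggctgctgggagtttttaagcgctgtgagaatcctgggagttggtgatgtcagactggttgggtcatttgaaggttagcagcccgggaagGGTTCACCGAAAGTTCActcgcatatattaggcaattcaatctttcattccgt
Cyp26a1, chr19:37697558-37697807, plus strand: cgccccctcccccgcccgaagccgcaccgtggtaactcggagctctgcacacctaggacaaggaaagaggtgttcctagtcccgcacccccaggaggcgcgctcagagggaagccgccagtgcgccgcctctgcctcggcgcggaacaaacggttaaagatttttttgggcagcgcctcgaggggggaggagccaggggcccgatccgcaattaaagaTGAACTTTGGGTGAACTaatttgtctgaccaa

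Rarb was at 0.10 and 0.26 TPM and Cyp26a1 at 0.90 and 0.78 TPM, so neither gene was detected. The DR5 element, searched on both strands, was in 32 of 32851 promoters of 300 bases (0.0974%). Promoters were found for 38 of the 42 members, 58 in all, and not for Thra, Hnf4g, Nr5a1 or Nr3c1. The hexamer AGGTCA, on either strand, was in 11 of these 58 promoters (18.97%), beside 16.3% of all promoters. It overlaps the longer element TCAAGGTCA, which was in 0.423% of all promoters and in none of the 58. DR0 and DR1 repeats of the hexamer were in none of the 58. A match is a description of letters, not a bound site.

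Nr6a1 itself and Prm2, a sperm protamine among the 20 genes listed as known receptor targets, each had the hexamer at 2 places before the start, as did Rxra and the listed target Stra8. The Nr6a1 start used is 1 of 2 with a RefSeq promoter entry and lies inside the gene's annotated span. Nr6a1 and Prm2 are shown with the hexamer in capitals, as TGACCT where it lies on the other strand.
Nr6a1, chr2:38784516-38784765, minus strand: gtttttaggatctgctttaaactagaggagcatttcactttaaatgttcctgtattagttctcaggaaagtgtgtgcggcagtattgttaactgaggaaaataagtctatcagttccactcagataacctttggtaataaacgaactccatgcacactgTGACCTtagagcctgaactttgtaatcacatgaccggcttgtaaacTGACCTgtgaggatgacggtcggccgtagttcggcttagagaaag
Prm2, chr16:10792106-10792355, minus strand: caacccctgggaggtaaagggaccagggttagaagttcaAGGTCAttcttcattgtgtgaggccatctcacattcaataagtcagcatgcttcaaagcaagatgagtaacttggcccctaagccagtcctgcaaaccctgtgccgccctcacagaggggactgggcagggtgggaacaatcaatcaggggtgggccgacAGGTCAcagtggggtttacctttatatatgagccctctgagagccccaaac

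In Prm2 the upstream copy is part of TCAAGGTCA. Prm2 was at 45.4 and 15928 TPM and Prm1, the other protamine, at 3011 and 10087 TPM. Of the 20 listed targets 16 were detected, beside 54.6% of protein-coding genes. Insl3, a Leydig cell hormone, was at 83.2 and 1630 TPM and Eppin, a sperm-coating protein, at 64.7 and 74.6 TPM.

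The thyroid hormone receptor Thra was at 2.20 and 11.7 TPM and Thrb at 1.09 and 0.78 TPM. Thra exceeded Thrb 2.02-fold (1.39 to 2.88) and 14.9-fold (11.2 to 19.97). That order turned on plain counts in replicate 1, where the ratio was 0.302 and 41 counts of Thra stood beside 136 of Thrb. The coding transcripts of Thra held 43.2% of its TPM in replicate 1 and 89.96% in replicate 2. Vdr, the vitamin D receptor, was at 2.68 and 5.64 TPM. Of 8 genes for the supply of thyroid hormone and vitamin D, 4 were detected, beside 54.6% of protein-coding genes. Among the 4 were Cyp2r1 (16.2 and 6.95 TPM), a vitamin D hydroxylase, Cyp27a1 (2.07 and 7.23 TPM), another, and Dio2 (1.86 and 1.18 TPM), which activates thyroid hormone.

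The PPAR genes encode fatty acid sensors, and only Pparg was detected. Pparg was at 1.63 and 2.22 TPM, Ppara at 0.50 and 2.03 TPM and Ppard at 0.13 and 2.12 TPM. In replicate 2 the 3 genes were at like levels, and the intervals of the ratios Ppard over Ppara (0.721 to 1.54) and Ppara over Pparg (0.602 to 1.38) both spanned 1. In replicate 1 Pparg exceeded Ppara 3.26-fold, a call lost with posterior mean TPM, where Ppara over Pparg was 0.864.

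The oestrogen-related receptors, orphans tied to energy metabolism, gave the largest library difference of any member. Esrra (ENSMUSG00000024955.9, chromosome 19, 6910977 to 6921813, minus strand) had 0 counts in replicate 1 and 319 counts, or 13.3 TPM, in replicate 2. With a floor of 3 counts for the library at 0, its level was at least 134-fold higher in replicate 2, and the exact 95% interval of the count ratio began at 108.7. The authors' posterior mean TPM was 0.55 and 13.8, and the log2 ratio set against genes of like GC content was 4.65, both far smaller differences. Esrrb was at 0.58 and 2.53 TPM and Esrrg at 0.69 and 0.57 TPM. By TPM the order within the class turned between libraries. Both Esrrb and Esrrg exceeded Esrra in replicate 1, and Esrra exceeded Esrrb 5.27-fold and Esrrg 23.4-fold in replicate 2. The order in replicate 1 rests on 0 counts of Esrra. The authors' posterior mean TPM there was 0.55 for Esrra, 0.76 for Esrrb and 0.99 for Esrrg. Their deposited intervals overlap (0.083 to 1.15, 0.515 to 1.02 and 0.620 to 1.46).

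The COUP transcription factors, orphan regulators of development, had Nr2f2 above Nr2f6 by TPM in replicate 1 and below it in replicate 2. On plain counts Nr2f6 over Nr2f2 was 0.0291 and 0.712, with Nr2f2 higher in both. Nr2f2, COUP-TFII (ENSMUSG00000030551.9, chromosome 7, 70351944 to 70366735, minus strand), was at 5.49 and 3.25 TPM. Nr2f6 was at 0.78 and 8.03 TPM from 12 and 84 counts, and its coding transcripts held 25.6% and 30.8% of that. Nr2f1, COUP-TFI, was at 0.02 and 0.12 TPM. Nr2f2 exceeded Nr2f1 in both libraries, 286-fold from 413 counts against 1 (51.0 to 11310) and 27.9-fold from 118 against 3 (9.32 to 137). With posterior mean TPM these ratios were 12.6 and 4.32.

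The NR4A genes are immediate early genes that respond to many stimuli. Nr4a1 (ENSMUSG00000023034.6, chromosome 15, 101254269 to 101274795, plus strand) was at 0.93 and 20.2 TPM. Nr4a3 was at 0.82 and 1.31 TPM and Nr4a2 at 0.35 and 0.42 TPM. Nr4a1 exceeded Nr4a2 2.62-fold and 48.4-fold, an order that turned in replicate 1 with posterior mean TPM (0.394). Nr4a1 exceeded Nr4a3 only in replicate 2 (15.5-fold).

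The members known from other organs had few or no reads. Hnf4a and Hnf4g, liver and gut regulators, had 5 and 3 counts and 6 and 0 counts. Nr2e1, a factor of neural stem cells, had 6 and 5 counts, and Nr2e3, a photoreceptor factor, had 0 in both libraries. Where no read was counted, as many as 3 remain possible, or 0.0938 CPM in replicate 1 and 0.145 CPM in replicate 2.

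Across libraries, 32 members had a mean of 10 counts or more and were compared on rounded counts by a conditional binomial test (exact, two-sided) with Benjamini-Hochberg adjustment over 18589 genes. Calls needed an adjusted p below 0.05 together with at least a 2-fold ratio. Such a call concerns reads of 2 libraries from 1 testis and no condition. It called 14 members higher in replicate 2, beside 32.1% of all genes tested, and 5 higher in replicate 1, beside 23.7%. The 14 were Rxra, Nr5a1, Nr4a1, Rxrb, Rara, Thra, Esrra, Nr1d1, Nr2f6, Nr2c2ap, Rarg, Esrrb, Ppard and Rxrg. The 5 were Nr1d2 (2.97-fold higher, adjusted p = 9.5e-157), Nr3c1 (2.47-fold), Nr2f2 (2.77-fold), Esr1 (2.31-fold) and Esrrg (2.73-fold). Among the 14, Rxrb was 33.0-fold higher in replicate 2 (adjusted p = 3.7e-146), Nr4a1 17.5-fold and Nr5a1 8.71-fold. The members' median log2 ratio of replicate 2 over replicate 1 was 0.64, beside -0.0033 for all genes tested. Of the 5 members of highest mean TPM, Nr6a1, Nr2c2, Rora and Nr2c1 were each under 2-fold apart, and Nr1d2 was not.

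These differences moved with the GC content of the transcript. The 14 members higher in replicate 2 had transcripts of 52.8% to 67.3% GC (median 58.3%), and the 5 higher in replicate 1 had 41.5% to 45.4% (median 42.7%), so the sets did not overlap. The same direction held over all genes, with a median of 55.7% for those called higher in replicate 2 and 42.2% for those higher in replicate 1. Across the 32 members the Spearman correlation of GC content with the log2 ratio was 0.88, and across 18404 genes 0.89, as a description over genes that share both libraries. When each gene's ratio was set against the median of genes of like GC content, 4 members stayed higher in replicate 2 (Rxrb, Esrra, Nr1d1 and Rxrg), beside 10.9% of genes. Rxrb and Nr1d1 lay close to the 2-fold limit, at log2 ratios of 1.12 and 1.04, and Nr4a1 fell just short of it at 0.95. Rxrg had 4 and 33 counts. On that scale 5 were called higher in replicate 1, beside 8.72%, and none of them was among the 5 called before: Rora, Nr0b1, Nr2f6, Rarg and Thrb. Nr2f6 and Rarg thus changed direction. The Rora call depends on the transcript that stands for the gene, Rora-202 at 50.75% GC. Rora-201, at 40.92% GC, held 57.5% of the gene's counts in replicate 1 and 37.9% in replicate 2. The members' median log2 ratio on that scale was -0.14, beside 0 for all genes, so the excess of 0.64 was not kept. Their median GC content was 51.9%, beside 49.1% for all genes tested.

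**Figure D2:**
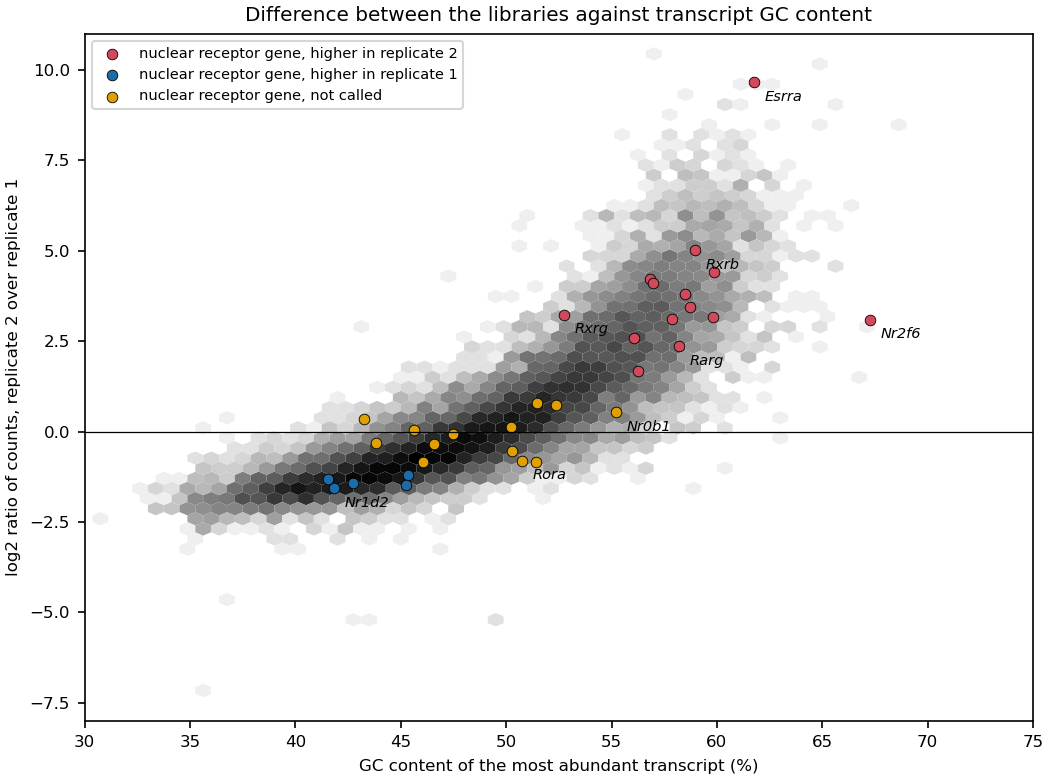
Log2 ratio of counts, replicate 2 over replicate 1, against the GC content of each gene's most abundant transcript, with all tested genes as grey hexagons (darker for more genes) and the 32 tested members as points coloured by their call. Members called higher in replicate 2 lie at 52.8% GC or more and members called higher in replicate 1 at 45.4% or less. Over all genes with these calls the median GC was 55.7% and 42.2%.

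Comparing relatives within a library, of 23 pairs of related receptor genes 12 had the same gene higher in both libraries by intervals that exclude 1. These were Rara over Rarb, Rxra over Rxrb and over Rxrg, Esr1 over Esr2, Nr3c1 over Pgr, Thra over Thrb, Rora over Rorb, Nr2c2 over Nr2c1, Nr2f2 over Nr2f1, Nr4a1 over Nr4a2, Nr5a1 over Nr5a2 and Nr0b1 over Nr0b2. In 3 pairs the libraries gave opposite orders (Esrra with Esrrb, Esrra with Esrrg, Nr2f6 with Nr2f2), the last of them lost on plain counts, and 8 had no call. Both Esrra pairs rest on 0 counts of Esrra in replicate 1. Rora exceeded Rorb 546-fold (213 to 2005) and 1063-fold (294 to 8796). Nr5a1 exceeded Nr5a2 20.2-fold (10.6 to 43.3) and 87.2-fold (47.2 to 182.5). Not all of the 12 calls held under other measures. With posterior mean TPM, Nr4a1 over Nr4a2 turned in replicate 1 (0.394) and the call of Rxra over Rxrb was lost. On plain counts Thra over Thrb turned in replicate 1 (0.302). For some other pairs, though not for Rara over Rarb or Thra over Thrb, posterior mean TPM gave smaller ratios with the same gene higher. These were 195 and 147 for Rora over Rorb, 5.29 and 28.2 for Nr5a1 over Nr5a2, and 31.4 and 11.5 for Esr1 over Esr2. Nr3c1 over Pgr was at 126 and 57.6, beside 1035 and 399 with TPM.

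**Figure D3:**
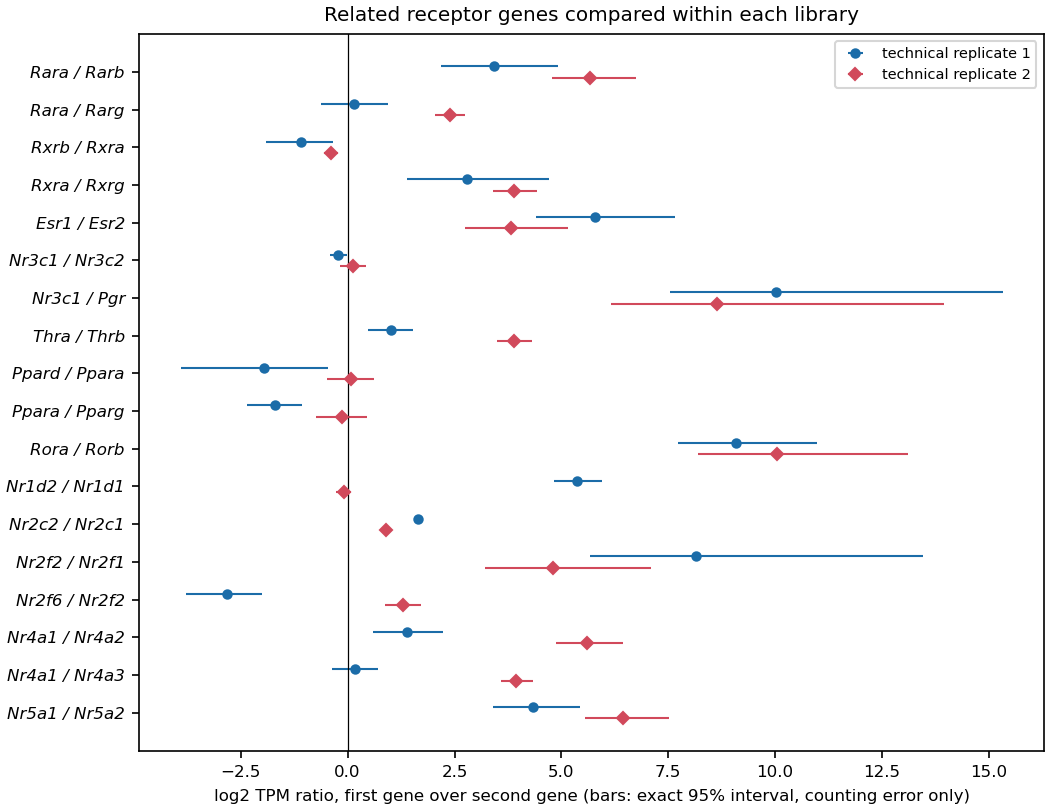
Log2 ratio of TPM for related receptor genes, the gene named first over the other, within replicate 1 (circles) and replicate 2 (diamonds), with exact 95% intervals for counting error. Pairs in which a ratio is 0 or has no denominator are left out, and Nr2f6 over Nr2f2 lies on opposite sides of equality in the libraries.

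Of the 15 detected members, 14 have more than 1 annotated transcript, and in 9 of these the same transcript led in replicate 1 and in replicate 2, beside 66.2% of such genes among all detected. The same form led in Nr2c2, Rora, Nr1d2, Nr5a1, Nr3c1, Nr3c2, Esr1, Vdr and Pparg. It differed in Nr6a1, Nr2c1, Nr2f2, Rara and Thra. Esr1-204 held 99.0% and 67.8% of Esr1, and Nr3c1-204 held 98.5% and 78.1% of Nr3c1. Nr2f2-201 led with 78.0% in replicate 1 and held 45.6% in replicate 2, where Nr2f2-202 led with 54.4%. In Rara, Rara-207 held 74.0% in replicate 1 and 17.2% in replicate 2, where Rara-203 led with 23.4%.

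**Figure D4:**
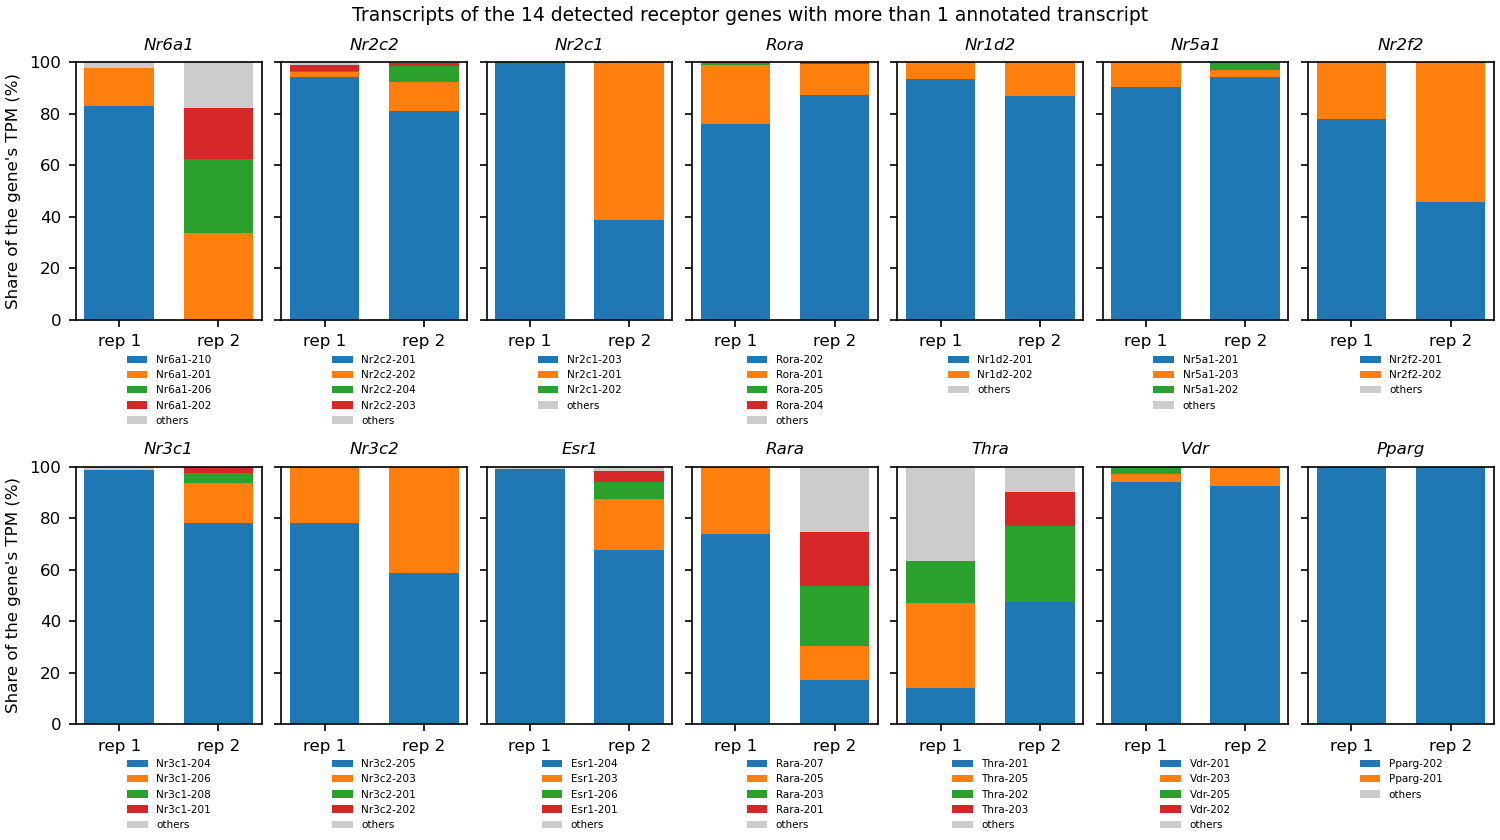
Share of each gene's TPM, in percent, given to its transcripts in replicate 1 and replicate 2, for the 14 detected members with more than 1 annotated transcript; colours mark up to 4 transcripts and grey the rest. Vdr and Pparg keep 1 dominant form, while Nr6a1 has Nr6a1-210 at 83.1% in replicate 1 and at 0% in replicate 2.

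Genes for the proteins through which receptors act stood higher than the receptors, with a median percentile of 65.9 for coactivators, 70.8 for corepressors and 97.0 for chaperones. The counts of detected genes given next stand beside 54.6% of protein-coding genes. Of 15 coactivator genes found, 14 were detected, with Ncoa4 (299 and 188 TPM), Med1 (103 and 62.5 TPM), a Mediator subunit, Kat2b (81.2 and 36.5 TPM), an acetyltransferase, and Ncoa6 (55.5 and 53.5 TPM) highest. Of 11 corepressor genes 9 were detected, with Gps2 (51.3 and 176 TPM), Ncor1 (110 and 71.8 TPM), Hdac3 (40.2 and 58.0 TPM) and Tbl1xr1 (44.1 and 25.3 TPM), all parts of the NCoR complex, highest. All 6 chaperones of steroid receptors were detected, led by Hsp90aa1 (3134 and 1214 TPM), Ptges3 (419 and 157 TPM), Hsp90ab1 (327 and 245 TPM) and Fkbp4 (51.6 and 407 TPM). Of 13 steroid supply genes 10 were detected, with Cyp17a1 (225 and 242 TPM), Hsd3b6 (97.8 and 121 TPM), Hsd3b1 (64.1 and 73.8 TPM) and Cyp11a1 (25.5 and 96.6 TPM), all enzymes of testosterone synthesis, highest. Between libraries, 9 of the 20 listed receptor targets were called higher in replicate 2 and 0 in replicate 1, beside 32.1% and 23.7% of all genes tested and with no account of GC content. The same counts were 3 and 2 of 15 coactivators, 3 and 2 of 11 corepressors, and 1 and 2 of 6 chaperones.

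Of the receptors outside the rule, Nr1h2, the oxysterol receptor LXR beta, was the highest by mean TPM, at 1.78 and 38.2 TPM. Nr1h3, LXR alpha, was at 0.45 and 11.1 TPM and Nr1h5 at 1.69 and 0.49 TPM. Nr1h4 (0.38 and 0.32 TPM) and Nr1i2 (0.14 and 0.31 TPM) were low, and Nr1i3 had 0 counts.

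Markers of testis cell types were checked against the labelled tissue. All 8 Leydig, all 5 spermatocyte, all 4 round spermatid, all 4 elongating spermatid and all 4 peritubular markers were detected, and 7 of 8 Sertoli markers (Amh was not). Spermatogonia markers were detected for 5 of 6 genes and summed to 62.6 and 117 TPM. The summed level of the elongating spermatid markers was 4533 and 44640 TPM and that of the spermatocyte markers 1829 and 717 TPM. All 4 elongating spermatid markers, at 49.2% to 59.3% GC, were called higher in replicate 2. Of the spermatocyte markers 4, at 34.6% to 42.1% GC, were called higher in replicate 1. The fifth, Piwil1, at 52.5% GC, went the other way (89.9 and 177 TPM) without a call. The part of these differences between libraries of the same animal in the members' differences was not tested. Leydig markers summed to 604 and 2241 TPM, of which Insl3 alone gave 83.2 and 1630 TPM, and the median log2 ratio of the 8 genes was -0.16. Sertoli markers summed to 157 and 176 TPM. Of the 4 epididymis markers 2 were detected, Crisp1 (53.8 and 19.3 TPM) and Adam7 (2.53 and 1.08 TPM), and Lcn5 and Lcn8 were at 0. Detected were 3 of 6 macrophage, 3 of 5 endothelial and 2 of 4 adipocyte markers.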

How the data were processed

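PolyA mRNA of testis from 1 mouse was measured in 2 technical libraries. Per the deposited notes, the authors quantified genes and transcripts per library on mm10 with annotation M4. Sources used here do not name the aligner or quantifier. Deposited by the authors were expected counts (estimated reads, rounded here for tests), TPM, FPKM, and for each transcript its percent of the gene's level. The posterior SD of each count, a score deposited by the authors, was 0 for all 42 members. Names and coordinates (1-based) came from GENCODE M21 on the same assembly, for 42462 of 43346 genes. Depth was 31995377 and 20675551 counts.

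Library sizes were scaled by TMM (edgeR 4.0.16, factors 0.904 and 1.11, over genes averaging at least 10 counts). Log2 ratios add 0.5 to each count. GC content is that of the most abundant transcript, and like GC means the same of 100 bins of equal gene number. Zinc fingers were translated from GENCODE coding transcripts, in place of RefSeq proteins. All members are named, and of each other list the 4 highest by mean TPM and any gene a sentence turns on; a few genes this rule picks are not reported here. The members, lists and alternatives were chosen with earlier results of these data known. Alternatives were other detection limits, count filters and ratio limits, leaving out a library, FPKM or posterior mean TPM in place of TPM, scaling by plain totals or DESeq2 1.42.0, GC centring, and pairs on plain counts. Other computation used R 4.3.3, Python 3.11.15 and scipy 1.17.1.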

Additional observations from a re-analysis of the deposited data

How the results depend on the processing

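The count of detected members, 15, followed the limit: 25 at 0.5 TPM, 6 at 5 TPM and 28 at 10 counts in both libraries, and 16 to 28 with 1 library left out (28 without replicate 1). With posterior mean TPM in place of TPM it was 21. The pairs with a call went from 12 to 17 without replicate 1 and 19 without replicate 2. Members called higher in replicate 2 went from 14 to 4 after centring on GC content. Those higher in replicate 1 went from 5 to 8 at a ratio limit of 1.5 and to 0 at a limit of 4. At that limit the exact binomial test still gave adjusted p-values under 0.05 for all of the 5, so the construction of the limit removed them. Plain library totals moved every log2 ratio up by 0.29, which added Vdr and Ppara in replicate 2 and lost Esr1 in replicate 1.

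Centring on GC content turned the sign of the log2 ratio for Nr6a1 (0.22), Nr2c1 (0.66), Nr0b1 (-1.50), Nr5a1 (-0.17), Rara (-0.42), Thra (-0.97), Nr3c1 (0.073), Nr2f6 (-2.13), Vdr (-0.32), Pparg (-0.11), Rarg (-1.26), Esrrb (-0.94) and Nr4a2 (0.45; 0.23 with library totals). Plain counts turned the ratio of Nr3c1 over Nr3c2 (3.91), Thra over Thrb (0.302) and Nr4a1 over Nr4a3 (0.529) in replicate 1, and of Nr1d2 over Nr1d1 (1.53) and Nr2f6 over Nr2f2 (0.712) in replicate 2. Posterior mean TPM turned Hnf4g over Hnf4a (0.386) and Nr4a1 over Nr4a2 (0.394) in replicate 1, and Nr3c1 over Nr3c2 (0.992), Ppard over Ppara (0.828) and Ppara over Pparg (1.49) in replicate 2. The cause was not tested. With 1 group, no paired analysis was possible because there is no second group to pair. Counts under 10 (14 members in replicate 1, 9 in replicate 2) limit what can be said of the lowest members.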
